A study of Mus musculus with 9 samples.

Results

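Fc receptors bind the constant part of antibodies, and 10 genes for Fc receptors, their shared signaling chain and Fc receptor-like proteins were followed in RNA from the mouse iris after corneal alkali injury. They were taken by gene symbol from the count files and are 10 of the 18349 genes listed there. By role they are the activating Fc gamma receptors Fcgr1, Fcgr3 and Fcgr4 with the signaling chain Fcer1g, the inhibitory receptor Fcgr2b, the neonatal receptor Fcgrt, the Fc receptor-like genes Fcrls and Fcrl1, and the IgE receptors Fcer1a and Fcer2a. The mice were C57BL/6J animals that carried floxed VEGFR3 alleles, and 3 groups of 3 libraries were compared. The paper used males and females and does not give the sex of these pools. Sham VEGFR3 fl/fl mice received PBS on the cornea, and injured VEGFR3 fl/fl mice (injured controls) received 0.5 μL of 1 M NaOH on filter paper for 60 seconds at 6 weeks of age. The injured group labelled VEGFR3iLECko also carried Prox1-CreERT2, a Cre that is active after tamoxifen in cells that express Prox1, such as lymphatic endothelium. Tamoxifen was listed for every group at 80 mg/kg on days 13 to 17, irises were collected at 10 weeks, and each library pooled 3 irises of the same genotype.

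An Fc receptor reports to the cell that an antibody has bound its target. The mouse receptors Fcgr1, Fcgr3 and Fcgr4 bind IgG and signal through the gamma chain encoded by Fcer1g, whose ITAM motif is phosphorylated by Src family kinases and then recruits the kinase Syk, and this leads to phagocytosis, an oxidative burst and cytokine release. Fcgr2b binds IgG as well but carries an inhibitory ITIM motif that recruits the phosphatase SHIP1 (Inpp5d), so that myeloid cells that hold both kinds respond according to their balance. Fcgrt, with beta 2 microglobulin, returns IgG and albumin from endosomes to the cell surface instead of signaling.

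Total counts per library lay between 16617187 and 18306359, and edgeR's filter on low counts kept 15010 genes, among them 9 of the 10 members. Fcer1a was the member that did not pass. Levels are given as counts scaled to equal depth (CPM) on the scale of edgeR's TMM normalization. A gene was called when edgeR's quasi-likelihood test gave a Benjamini-Hochberg adjusted p under 0.05 over all tested genes together with a change of more than 1.5-fold. Pigment cell markers, which mark the iris epithelium and stroma, summed to between 3325 and 29093 CPM in every library, whereas the 2 ciliary body markers summed to at most 3.64 CPM. Flt4, the gene for VEGFR3, had 237 to 282 counts in Sham, 277 to 400 in injured controls and 370 to 478 in the libraries labelled VEGFR3iLECko. The log2 difference between the injured groups was 0.33 (edgeR adjusted p = 0.200). These counts come from all cells of the iris and did not show the deletion, so in these data the label alone defines this group. By staining, the paper reports that lymphatic growth in the injured iris was blocked in mice of this genotype. The summed level of 4 Y-linked genes, which only male mice carry, was 0.804 CPM in injured control replicate 3 and 0.736 to 1.11 CPM in the libraries labelled VEGFR3iLECko, against 51.1 to 167 CPM in the other 5 libraries. In the comparison of the injured groups, the label and the Y-linked level differed together except for injured control replicate 3. The parts of sex and label in that comparison cannot be fully told apart. No label says that the pools came from separate litters or days, so the p-values measure the spread between these pools.

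4 of the members lie close together on chromosome 1, where Fcgr2b, Fcgr4, Fcgr3 and Fcer1g fall within 273.8 kb (GRCm38, chr1:170960558-171234349). Fcrls, Fcrl1 and Fcgr1 are on chromosome 3, Fcer1a is on chromosome 1, Fcgrt on 7 and Fcer2a on 8. The 120 bases before the transcription start are shown for the Fc gamma receptors and the signaling chain, because these genes differ in how much they changed. They are RefSeq sequences of GRCm38.p6, written 5′ to 3′ on the strand of the gene, and capitals mark the letters GAGGAA or their reverse complement TTCCTC, the core bound by PU.1, a transcription factor of myeloid and B cells.
Fcgr1, chr3:96293970-96294089, minus strand: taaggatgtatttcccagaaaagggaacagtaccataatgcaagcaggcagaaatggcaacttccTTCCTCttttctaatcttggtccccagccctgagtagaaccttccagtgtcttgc
Fcgr3, chr1:171059404-171059523, minus strand: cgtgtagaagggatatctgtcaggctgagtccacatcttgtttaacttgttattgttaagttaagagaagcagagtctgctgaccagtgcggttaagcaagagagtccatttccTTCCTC
Fcgr4, chr1:171018806-171018925, plus strand: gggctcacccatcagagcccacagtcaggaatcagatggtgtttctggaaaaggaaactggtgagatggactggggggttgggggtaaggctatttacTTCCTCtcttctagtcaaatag
Fcer1g, chr1:171234350-171234469, minus strand: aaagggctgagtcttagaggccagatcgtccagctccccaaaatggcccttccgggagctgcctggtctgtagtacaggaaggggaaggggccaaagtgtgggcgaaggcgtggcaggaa
Fcgr2b, chr1:170976072-170976191, minus strand: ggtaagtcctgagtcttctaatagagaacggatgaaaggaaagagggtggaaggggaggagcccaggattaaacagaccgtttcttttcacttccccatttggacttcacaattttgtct
The core letters began 55 bases before the start of Fcgr1, 22 before that of Fcgr4 and 6 before the Fcgr3 start shown. They were not found in these windows of Fcer1g and Fcgr2b. Fcgr3 has another listed start, and the letters began 15 bases before it. The Fcgr3 window shown lies within the annotated span of that gene (chr1:171051169-171065915). Within 250 bases before the start, on either strand, they were found for 6 of the 10 members (Fcgr1, Fcgr3, Fcgr4, Fcrls, Fcrl1 and Fcer1a) and for 23.3% of 32851 RefSeq promoters. The interferon gamma activated sequence TTCNNNGAA occurred before Fcgr1 (7.02% of promoters) and the interferon-stimulated response element (ISRE) before Fcgr4 (2.98% of promoters). A match of letters is a description of the sequence and does not show that a factor binds there.

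8 of the 9 tested members were upregulated in the iris of injured controls compared with Sham, and Fcer2a was not called. 22.1% of all tested genes were upregulated by the same rule and 17.5% were downregulated. In 8 of the 9 tested members every injured library was above every Sham library, as in 33.9% of all tested genes. The median log2 fold change of the tested members was 3.59, against 0.010 over all tested genes. Members with almost no counts in Sham can enter the test through the injured groups, so these counts describe the members and do not stand as evidence of their own. In bulk tissue, more cells of a kind and more RNA per cell cannot be told apart.

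**Figure D1:**
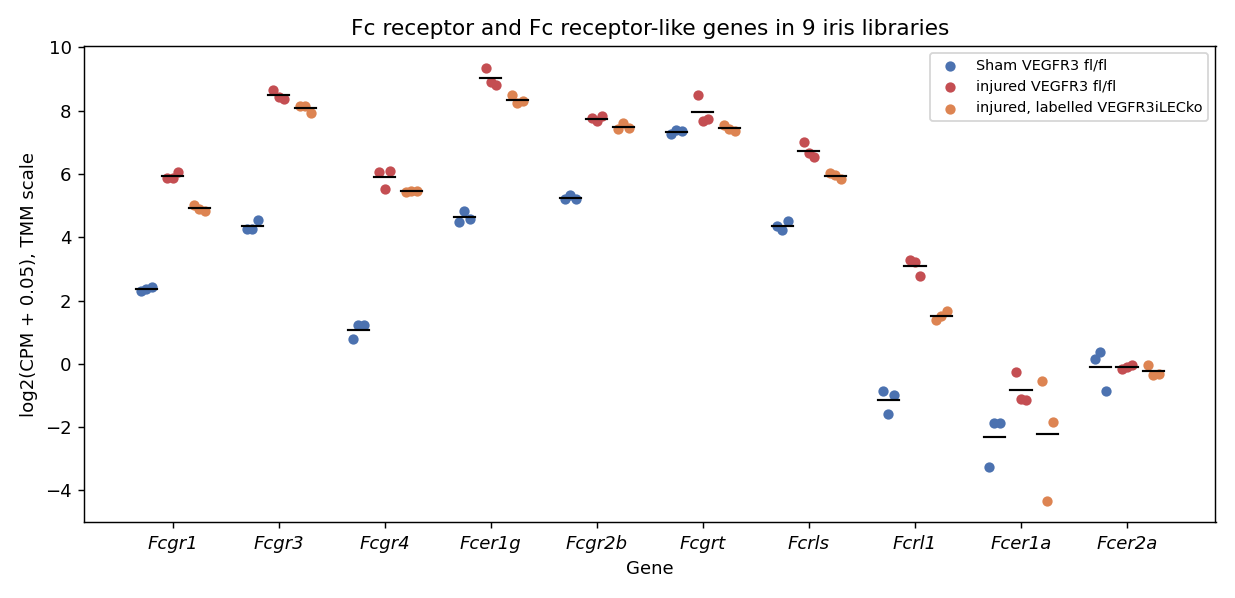
Levels of the 10 genes in each library as log2(CPM + 0.05), with the genes on the x axis, a point for each library and a line at the group mean (n = 3). The injured groups lie above Sham for every gene from Fcgr1 to Fcrl1 except Fcgrt, whose values in the libraries labelled VEGFR3iLECko overlap Sham, and the IgE receptors lie at the bottom of the scale.

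Fcgr4, an activating receptor for IgG2 subclasses, had the largest rise of the tested members. It had 30, 41 and 41 counts in Sham libraries 1 to 3, 1109, 786 and 1202 counts in injured controls and 733, 783 and 765 counts in the injured libraries labelled VEGFR3iLECko. Injured replicate 2 was the lowest of its group and still far above Sham. Its level averaged 2.10 ± 0.376 CPM (SD, n = 3) for Sham, 60.8 ± 12.8 CPM for injured controls and 43.7 ± 0.805 CPM for the group labelled VEGFR3iLECko. The rise after injury was 28.9-fold (log2 fold change 4.85, SE 0.194, adjusted p = 1.62e-07).

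Fcer1g, the signaling chain that the activating receptors share, also with the IgE receptor of mast cells, had 406, 504 and 423 counts in Sham. It had 10861, 8191 and 7852 counts in injured controls and 6237, 5325 and 5454 counts in the group labelled VEGFR3iLECko. The 3 groups did not overlap, and injured replicate 1 was the highest library. Its CPM was 24.9 ± 3.14 (SD, n = 3) in Sham and 530 ± 113 in injured controls, a 21.3-fold rise (log2 fold change 4.41, SE 0.180, adjusted p = 1.77e-07).

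Fcgr3, a low-affinity activating receptor, had 349, 338 and 415 counts in Sham, 6599, 5865 and 5817 in injured controls and 4828, 5021 and 4254 in the group labelled VEGFR3iLECko. These groups did not overlap. Fcgr3 rose 17.4-fold after injury (log2 fold change 4.12, SE 0.125, adjusted p = 4.18e-08), from 20.6 ± 2.40 to 359 ± 36.0 CPM (SD, n = 3 each).

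Fcgr1, the high-affinity receptor for IgG, had 89, 90 and 95 counts in Sham, 974, 999 and 1177 in injured controls and 554, 527 and 493 in the group labelled VEGFR3iLECko. Each group was tight and separate from the others. The rise after injury came to a log2 fold change of 3.59 (SE 0.096, adjusted p = 2.35e-08), from 5.12 ± 0.213 to 61.7 ± 5.09 CPM (SD, n = 3 each).

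Fcgr2b, the inhibitory receptor, rose after injury as well, but by less than each of the 3 activating receptors. It had 670, 722 and 650 counts in Sham, 3560, 3498 and 3966 in injured controls and 2909, 3468 and 3061 in the group labelled VEGFR3iLECko. The lowest count of injured controls lay just above the highest count of the group labelled VEGFR3iLECko, and both lay far above Sham. Fcgr2b rose 5.66-fold after injury (log2 fold change 2.50, SE 0.086, adjusted p = 7.25e-08), from 38.2 ± 2.28 to 216 ± 11.5 CPM (SD, n = 3 each). The 95% interval of its log2 fold change, 2.31 to 2.70, lay below those of Fcgr1 (3.37 to 3.81), Fcgr3 (3.84 to 4.41) and Fcgr4 (4.42 to 5.29), and the difference between genes was not tested. Fcgr3 and Fcgr2b share sequence, since 166 of the 1298 stretches of 50 bases in Fcgr3 transcripts (12.8%) also occur in Fcgr2b. Reads from those stretches could have been assigned to either gene. The deposited counts of both genes were whole numbers in every library, and how such reads were assigned was not tested. Of the 3495 such stretches in Fcgr2b, 436 (12.5%) also occur in other genes, most often in Gm47409 and Cplx2 (241 each).

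The balance of activating to inhibitory receptor is given from levels divided by transcript length (approximate TPM, with the longest annotated transcript of each gene), which allows genes to be compared. The summed level of Fcgr1, Fcgr3 and Fcgr4 was 1.68, 1.56 and 2.06 times that of Fcgr2b in Sham libraries 1 to 3. It was 6.13, 5.44 and 5.12 times Fcgr2b in injured controls and 5.34, 4.65 and 4.58 times in the group labelled VEGFR3iLECko. Every injured library was thus above every Sham library, while the 2 injured groups overlapped. As a share of the 4 Fc gamma receptors, Fcgr2b made up 32.7% to 39.0% in Sham, 14.0% to 16.3% in injured controls and 15.8% to 17.9% in the group labelled VEGFR3iLECko. Without division by length the group means of the log2 ratio were -0.46 in Sham, 1.15 in injured controls and 0.93 in the group labelled VEGFR3iLECko, against 0.81, 2.47 and 2.28 per length, so whether activating receptors outnumbered Fcgr2b in Sham depended on the length used.

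**Figure D2:**
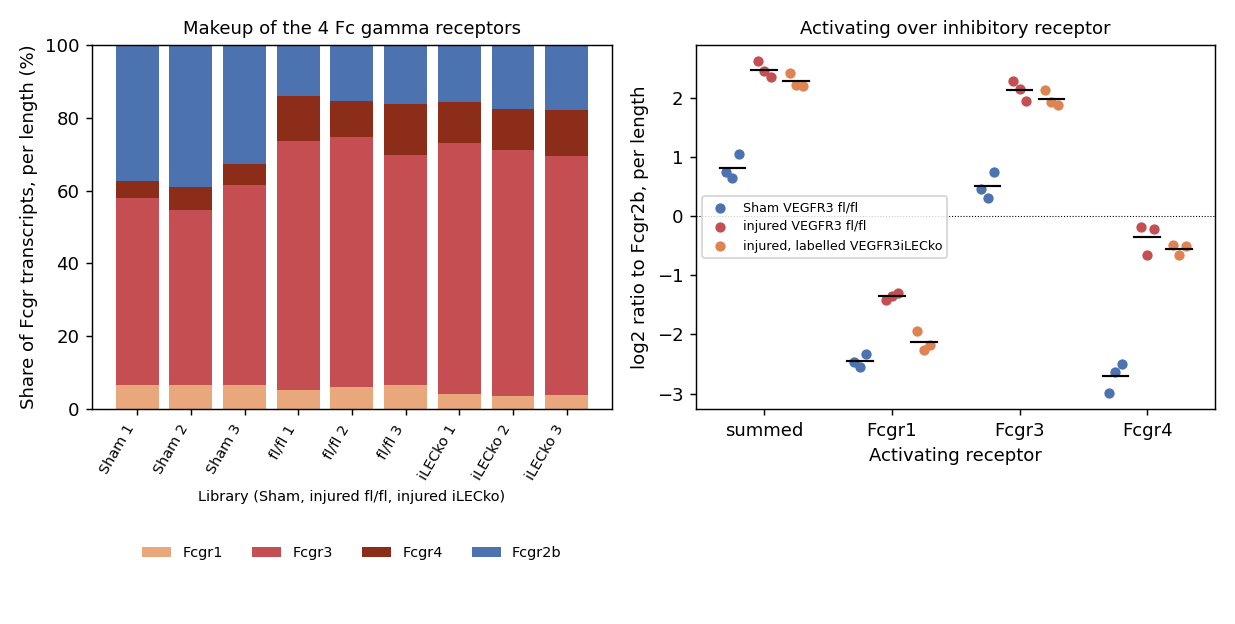
Left, share of the summed per-length level of Fcgr1, Fcgr3, Fcgr4 and Fcgr2b in each library, in percent, from 0. Right, log2 ratio of activating receptors to Fcgr2b per length, with a point for each library and a line at the group mean (n = 3). Fcgr2b takes 32.7% to 39.0% in Sham and 14.0% to 17.9% in the injured libraries, and the Fcgr1 ratio separates all 3 groups.

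The activating receptors did not share this balance equally. The ratio of Fcgr3 to Fcgr2b was 1.23 to 1.68 in Sham, 3.86 to 4.88 in injured controls and 3.66 to 4.37 in the group labelled VEGFR3iLECko. The ratio of Fcgr4 to Fcgr2b was 0.126 to 0.178 in Sham, 0.634 to 0.879 in injured controls and 0.637 to 0.711 in the group labelled VEGFR3iLECko. The injured groups overlapped for both genes. The ratio of Fcgr1 to Fcgr2b was 0.171 to 0.200 in Sham, 0.375 to 0.406 in injured controls and 0.208 to 0.261 in the group labelled VEGFR3iLECko, without overlap between any groups. Per length, Fcgr4 stood just below Fcgr1 in Sham (4.76 ± 0.730 against 5.66 ± 0.284 TPM, SD, n = 3) and above it in injured controls (112 ± 22.8 against 55.7 ± 7.73 TPM). Without division by length, Fcgr4 was below Fcgr1 in Sham (2.10 against 5.12 CPM) and close to it in injured controls (60.8 against 61.7 CPM). Whether Fcgr4 passed Fcgr1 thus depended on the length used.

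In order of level per length, Sham libraries held most Fcgrt (260 ± 5.49 TPM, SD, n = 3), followed by Fcer1g (104 ± 8.87 TPM), Fcgr3 (43.8 ± 5.65 TPM), Fcgr2b (30.8 ± 0.936 TPM), Fcrls (26.1 ± 3.10 TPM), Fcgr1, Fcgr4 and then Fcer2a, Fcrl1 and Fcer1a, the last 3 of which overlapped at 1.19, 0.542 and 0.478 TPM. After injury Fcer1g (1788 ± 230 TPM) and Fcgr3 (619 ± 12.3 TPM) stood above Fcgrt (336 ± 82.2 TPM). Fcgr2b (142 ± 14.0 TPM), Fcgr4 and Fcrls (110 ± 9.68 TPM) followed, and neighbours among these 3 overlapped. Fcer1g was thus the most abundant member per length in the injured iris and Fcgrt in the Sham iris. Parts of this order depended on the lengths used, since by CPM Sham held more Fcgr2b (38.2) than Fcgr3 (20.6).

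Fcgrt encodes the neonatal Fc receptor. Its counts were 2758, 2945 and 2907 in Sham, 5910, 3486 and 3752 in injured controls and 3178, 3011 and 2877 in the group labelled VEGFR3iLECko. Injured replicate 1 stood far above the other libraries. Fcgrt rose 1.61-fold after injury (log2 fold change 0.69, SE 0.190, adjusted p = 0.0116), from 161 ± 7.20 to 259 ± 86.2 CPM (SD, n = 3 each). Without injured replicate 1 it had a log2 fold change of 0.38 (adjusted p = 0.00274), and of 0.50 with library size as the normalization (adjusted p = 0.0239), both under 1.5-fold, so the call rested on that library and on the scaling. The group labelled VEGFR3iLECko, at 174 ± 10.5 CPM, overlapped Sham (log2 fold change 0.11, 95% interval -0.32 to 0.54, adjusted p = 0.643).

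Fcrls encodes an Fc receptor-like protein with a scavenger receptor domain that is known from microglia. It had 371, 333 and 403 counts in Sham, 2119, 1742 and 1632 in injured controls and 1123, 1108 and 987 in the group labelled VEGFR3iLECko. The 3 groups did not overlap. Fcrls rose 5.22-fold after injury (log2 fold change 2.39, SE 0.131, adjusted p = 8.38e-07), from 20.7 ± 1.95 to 108 ± 18.2 CPM (SD, n = 3 each). Fcrl1, a receptor with ITAM-like motifs known from B cells, had 9, 5 and 8 counts in Sham, 159, 158 and 118 in injured controls and 44, 49 and 54 in the group labelled VEGFR3iLECko. It rose 20.5-fold (log2 fold change 4.36, SE 0.271, adjusted p = 1.71e-06), to 8.56 ± 1.56 CPM (SD, n = 3), and stayed the lowest of the upregulated members.

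The IgE receptors stayed near the floor of detection. Fcer1a, the IgE-binding chain of the high-affinity receptor of mast cells and basophils, had 1, 4 and 4 counts in Sham, 13, 7 and 7 in injured controls and 11, 0 and 4 in the group labelled VEGFR3iLECko, and was not tested. A count of 0 allows up to 3 counts, or 0.170 CPM in that library, counting error only. Fcer2a, the low-affinity IgE receptor CD23, had 9 to 22 counts in Sham, 14 to 16 in injured controls and 13 to 16 in the group labelled VEGFR3iLECko, so the groups overlapped. Its log2 fold change after injury was -0.08 (95% interval -0.89 to 0.73, adjusted p = 0.857), an interval that holds changes of more than 1.5-fold in either direction. Its deposited counts were not whole in all 9 libraries, and 39 of the 2193 stretches of 50 bases in its transcripts (1.78%) also occur in other genes.

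In the second comparison, the injured group labelled VEGFR3iLECko was set against injured controls. Fcgr1, Fcrls and Fcrl1 were downregulated, which is 3 of the 9 tested members, and 0 were upregulated. By the same rule 0.466% of all tested genes were downregulated and 0.573% upregulated. DESeq2 called 4 members lower and 0 higher, where it called 1.87% of all tested genes lower and 2.33% higher. At an unadjusted p under 0.05 in edgeR, 8 of the 9 members were lower, as were 12.5% of all tested genes. All 9 tested members had a lower mean in the group labelled VEGFR3iLECko, as had 51.5% of all tested genes, and in 8 of them every library was below every injured control library, as in 14.3% of all tested genes. The median log2 fold change was -0.58 over the tested members and -0.0099 over all tested genes. The 2 comparisons share the injured control libraries, so values that are high there push them in opposite directions.

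**Figure D3:**
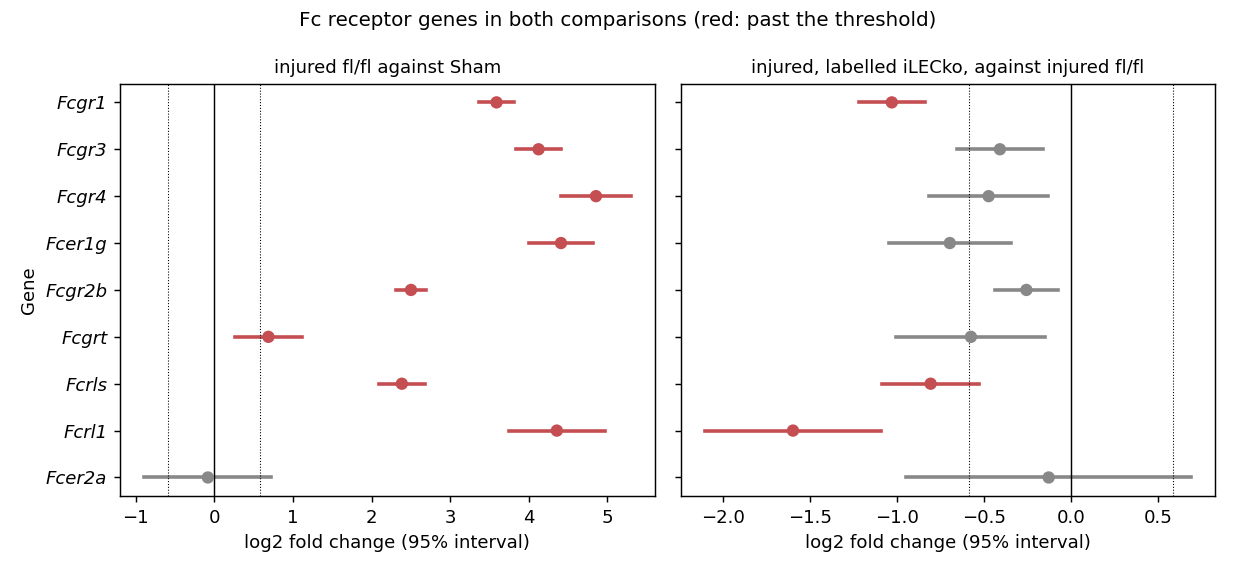
log2 fold change of the 9 tested members with 95% intervals, after injury (left) and in the injured group labelled VEGFR3iLECko against injured controls (right), on different x scales. Red marks called genes and dotted lines mark 1.5-fold. 8 members were called on the left, and Fcgr1, Fcrls and Fcrl1 on the right.

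Fcgr1 was 2.04-fold lower in the group labelled VEGFR3iLECko (log2 fold change -1.03, SE 0.084, adjusted p = 0.00861), at 30.2 ± 2.02 against 61.7 ± 5.09 CPM (SD, n = 3 each), and had the smallest adjusted p of all 15010 genes in this comparison. Injured replicate 3, the library with Y-linked levels as low as those of the group labelled VEGFR3iLECko, had 67.6 CPM, and the libraries labelled VEGFR3iLECko had 28.4 to 32.4 CPM. The adjusted p was 0.0594 in a fit of the 6 injured libraries alone and 0.0680 without replicate 2 of the group labelled VEGFR3iLECko. Over all 17 alternatives it ranged from 4.99e-16 to 0.0680 and the log2 fold change from -1.14 to -0.96.

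Fcrls was 1.75-fold lower (log2 fold change -0.81, SE 0.123, adjusted p = 0.0278), at 61.7 ± 4.49 against 108 ± 18.2 CPM (SD, n = 3 each). Fcrl1 was 3.03-fold lower (log2 fold change -1.60, SE 0.224, adjusted p = 0.0263), at 2.82 ± 0.271 against 8.56 ± 1.56 CPM, which made it the largest decrease of the tested members. Both calls were fragile. Fcrls lost its call in 8 of 17 alternatives (adjusted p up to 0.264) and Fcrl1 in 7 of 17 (up to 0.243), although the direction was the same in all of them. Over the 17 alternatives the log2 fold change ranged from -0.90 to -0.59 for Fcrls and from -1.74 to -1.28 for Fcrl1, with the values nearest to 0 in the fit with the Y-linked covariate. The Fcrls call was lost without Sham replicate 1 (adjusted p = 0.0579) or 3 (0.0596), or without replicate 1 (0.0607), 2 (0.118) or 3 (0.0666) of the group labelled VEGFR3iLECko. The Fcrl1 call was lost without Sham replicate 3 (adjusted p = 0.0596) or without replicate 1 (0.0635), 2 (0.111) or 3 (0.0513) of the group labelled VEGFR3iLECko. With the Y-linked level as a covariate the log2 fold changes were -0.59 for Fcrls (adjusted p = 0.264) and -1.28 for Fcrl1 (adjusted p = 0.243). Injured replicate 3 had 93.7 CPM of Fcrls and 6.78 CPM of Fcrl1, against 56.8 to 65.6 and 2.57 to 3.11 CPM in the libraries labelled VEGFR3iLECko.

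Fcer1g had a log2 fold change of -0.70 (SE 0.155, adjusted p = 0.0593) in this comparison, with 327 ± 33.3 against 530 ± 113 CPM (SD, n = 3 each). It passed the threshold with DESeq2 (adjusted p = 0.000855) and without injured replicate 3 (log2 fold change -0.80, adjusted p = 0.0455), and over 17 alternatives its adjusted p ranged from 0.000855 to 0.532. Fcgr4 had a log2 fold change of -0.47 (SE 0.151, adjusted p = 0.113), which became -0.64 (adjusted p = 0.0361) without injured replicate 2, the lowest library of its group. Fcgr3 (log2 fold change -0.41, SE 0.109, adjusted p = 0.0789) and Fcgrt (-0.58, SE 0.190, adjusted p = 0.121) were not called. The Fcgrt value became -0.27 without injured replicate 1 (adjusted p = 0.135) and -0.30 with the Y-linked covariate (adjusted p = 0.776). Fcgr2b had the difference nearest to 0 among the Fc gamma receptors (log2 fold change -0.26, 95% interval -0.44 to -0.08, adjusted p = 0.110), at 181 ± 13.8 against 216 ± 11.5 CPM. Fcer2a had -0.13 (95% interval -0.95 to 0.69, adjusted p = 0.851).

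Compared with Sham, the injured group labelled VEGFR3iLECko still had 7 of the 9 tested members upregulated, where 19.7% of all tested genes were. Fcgr4 was 20.8-fold above Sham, Fcgr3 and Fcer1g were each 13.1-fold above it, and Fcgr1 was 5.89-fold above it (log2 fold change 2.56, adjusted p = 1.57e-07). Fcrl1 was 6.76-fold, Fcgr2b 4.74-fold and Fcrls 2.98-fold above Sham. Fcgrt and Fcer2a were not called.

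Genes of ITAM signaling, the route that activating receptors use, rose as well. The list is not limited to the partners of Fc receptors. All 14 ITAM kinases and adaptors listed were upregulated after injury, with a median log2 fold change of 4.16. Tyrobp, an ITAM adaptor of myeloid cells, had 11.1 to 12.9 CPM in Sham and 330 to 502 CPM in injured controls (log2 fold change 5.07, adjusted p = 8.60e-08). Syk, the kinase recruited by the phosphorylated ITAM, had 4.91 to 5.74 CPM in Sham and 109 to 130 CPM after injury (log2 fold change 4.49, adjusted p = 1.79e-08). The Src family kinase Lyn had a log2 fold change of 2.73 and the adaptor Grb2 of 0.90. In the group labelled VEGFR3iLECko, 0 of the 14 were called against injured controls by edgeR and 3 by DESeq2, all lower. In edgeR 8 were lower at an unadjusted p under 0.05, 13 had a lower mean, and the median log2 fold change was -0.40. Tyrobp had -0.65 (adjusted p = 0.0621) and Syk -0.19 (adjusted p = 0.214). Vav1, a guanine nucleotide exchange factor activated downstream of Syk, passed the adjusted p alone (-0.47, adjusted p = 0.0263).

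Of 8 phosphatases and adaptors on the inhibitory side, 6 were upregulated after injury (median log2 fold change 1.63). Ptpn11 (log2 fold change -0.35, adjusted p = 0.00546) and Cblb (0.57, adjusted p = 0.00501) passed the adjusted p but not the 1.5-fold threshold. Inpp5d, the phosphatase SHIP1 that Fcgr2b recruits, had 9.21 to 10.8 CPM in Sham and 103 to 125 CPM after injury (log2 fold change 3.48, adjusted p = 4.09e-08). Ptpn6, the phosphatase SHP-1, had 16.3 to 16.7 CPM in Sham and 92.6 to 124 CPM after injury (log2 fold change 2.64, adjusted p = 2.76e-07). Ptpn6 was the 1 gene of this list called in the group labelled VEGFR3iLECko, where it was lower than in injured controls (log2 fold change -0.61, adjusted p = 0.0399). Inpp5d had -0.41 there (adjusted p = 0.0593), and the list had a median of -0.35.

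All 11 genes of the phagocytic cup and the NADPH oxidase were upregulated after injury (median log2 fold change 3.90). Cybb, the catalytic subunit of the oxidase, had 13.2 to 13.5 CPM in Sham and 161 to 292 CPM after injury (log2 fold change 4.14, adjusted p = 5.07e-07). Its partner Cyba had a log2 fold change of 1.86 (adjusted p = 7.27e-06). In the group labelled VEGFR3iLECko, 0 of the 11 were called by edgeR and 2 by DESeq2, and all 11 were lower at an unadjusted p under 0.05 in edgeR (median -0.44). Nckap1l (-0.41, adjusted p = 0.0461) and Dock2 (-0.52, adjusted p = 0.0323), both regulators of the actin cytoskeleton, passed the adjusted p alone.

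**Figure D4:**
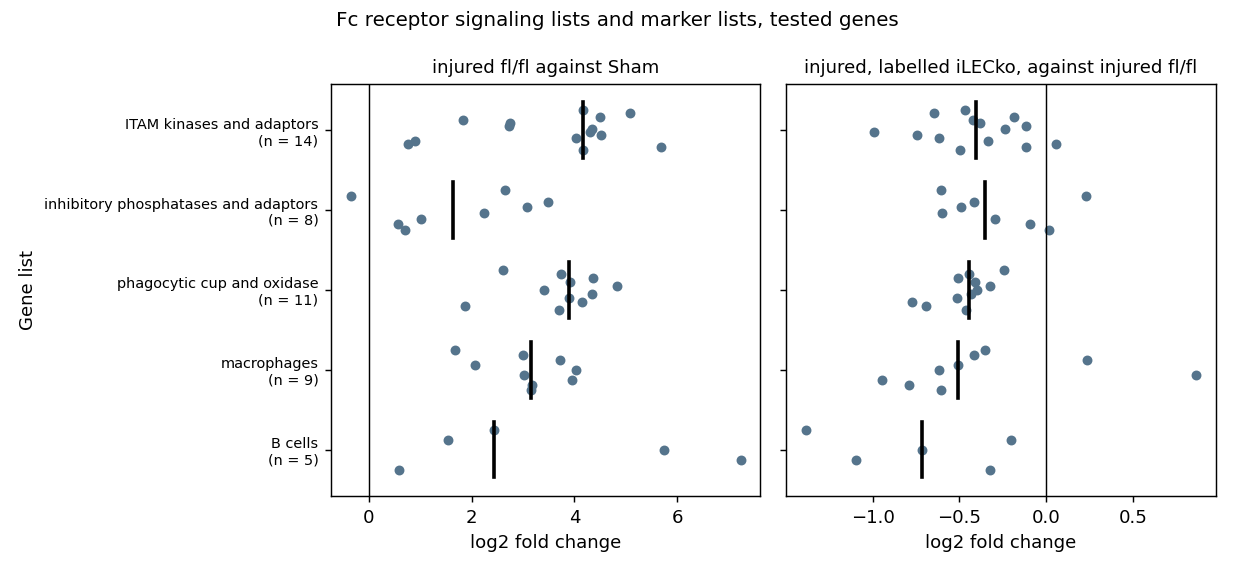
log2 fold changes of the tested genes of 3 signaling lists and 2 marker lists, after injury (left) and in the injured group labelled VEGFR3iLECko against injured controls (right). Each point is a gene and each bar the median of its list. The medians of the signaling lists were 4.16, 1.63 and 3.90 on the left and -0.40, -0.35 and -0.44 on the right.

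Of 10 further Fc receptors and relatives, 9 were listed in the files and 4 were tested. B2m, the partner of Fcgrt, had a log2 fold change of 0.93 (adjusted p = 0.000645) after injury. Fcrlb and Fcrla, intracellular Fc receptor-like proteins, rose from at most 0.226 and 0.113 CPM in Sham to between 2.91 and 3.85 and between 0.287 and 1.82 CPM (adjusted p = 0.000115 and 0.00345). The cytosolic antibody receptor Trim21 was not called (log2 fold change 0.14). In the group labelled VEGFR3iLECko, 0 of the 4 were called by edgeR or DESeq2, and 1 was lower at an unadjusted p under 0.05. Of the 12 antibody genes on the list of ligands only Jchain was listed in the files used here, with 0.115 to 32.0 CPM in injured controls and a log2 fold change after injury of 4.20 (adjusted p = 0.0613). Antibody transcripts were not analysed here.

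Markers of several kinds of cells known to carry Fc receptors moved in the same samples. All 9 macrophage markers were upregulated after injury (median log2 fold change 3.15), and their summed level was 338 to 347 CPM in Sham, 3009 to 3305 CPM in injured controls and 1993 to 2202 CPM in the group labelled VEGFR3iLECko. There 7 of the 9 had a lower mean than in injured controls, all 7 at an unadjusted p under 0.05, and 3 were called lower by edgeR and 4 by DESeq2. Those called by edgeR were the complement genes C1qa (log2 fold change -0.79, adjusted p = 0.0263) and C1qb (-0.95, adjusted p = 0.0235), and Adgre1, the gene for F4/80 (-0.60, adjusted p = 0.0278). Csf1r, the receptor for the macrophage growth factor CSF1, passed the adjusted p alone (-0.51, adjusted p = 0.0263). Cd14 was called higher (0.86, adjusted p = 0.0407), and the list had a median of -0.51. The 5 monocyte markers all rose after injury (summed 16.9 to 21.7 CPM in Sham and 175 to 319 CPM in injured controls), and 0 were called in the group labelled VEGFR3iLECko (161 to 264 CPM) by edgeR or DESeq2, with 0 at an unadjusted p under 0.05. Neutrophil markers summed to 0.665 to 1.69 CPM in Sham, 92.1 to 226 CPM in injured controls and 196 to 944 CPM in the group labelled VEGFR3iLECko, where all 6 tested had a higher mean, 0 were called by edgeR, 1 was called by DESeq2 and 3 were higher at an unadjusted p under 0.05. All 5 pigment cell markers fell after injury (summed 27246 to 29093 CPM in Sham and 3325 to 5739 CPM in injured controls), and so did 4 of 5 markers of iris smooth muscle. Of 6 dendritic cell markers, 5 were upregulated after injury (summed 11.1 to 12.8 CPM in Sham and 180 to 281 CPM in injured controls). Of 6 blood endothelium markers, 4 were upregulated (373 to 396 CPM and 1057 to 1245 CPM). In the group labelled VEGFR3iLECko these 2 lists summed to 108 to 211 and 1069 to 1245 CPM, with 0 called by edgeR or DESeq2. The part of all these cells in the changes of the receptors was not tested.

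Set against the macrophage markers of the same library, the receptors did not all keep pace. The value given is the log2 CPM of the gene minus the mean log2 CPM of the 9 markers, as a description. Fcgr4 went from -3.78 ± 0.29 in Sham to -2.02 ± 0.33 in injured controls and Fcer1g from -0.20 ± 0.22 to 1.11 ± 0.31 (SD, n = 3 each), so both gained on the markers, as did Fcgr3 (-0.48 to 0.56). Fcgr2b went from 0.42 ± 0.13 to -0.17 ± 0.07 and Fcrls from -0.47 ± 0.10 to -1.18 ± 0.25. Both thus rose by less than the mean of the markers (log2 fold change after injury 2.50 and 2.39). Of the markers only Csf1r (2.07) and Mertk (1.68) rose by less than these genes. Of the 7 members compared Fcgrt had the largest drop on this scale, from 2.50 ± 0.09 to 0.05 ± 0.46. In the group labelled VEGFR3iLECko, Fcgr3 (0.51), Fcgr4 (-2.12), Fcer1g (0.78) and Fcgr2b (-0.07) overlapped injured controls on this scale. Fcgr1 did not, with -2.71 to -2.57 against -2.06 to -1.85, and it lay below the Sham range of -2.55 to -2.44. Fcrls did not overlap either, with -1.71 to -1.55 against -1.38 to -0.90. The mean of the 9 markers includes Cd14 and Itgam, which were higher than in injured controls (log2 fold change 0.86 and 0.24), while 7 were lower. The lower ones ranged from -0.95 (C1qb) to -0.35 (Mertk), with Fcrls at -0.81 and Fcgr1 at -1.03. The scale without Cd14 and Itgam was not computed.

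**Figure D5:**
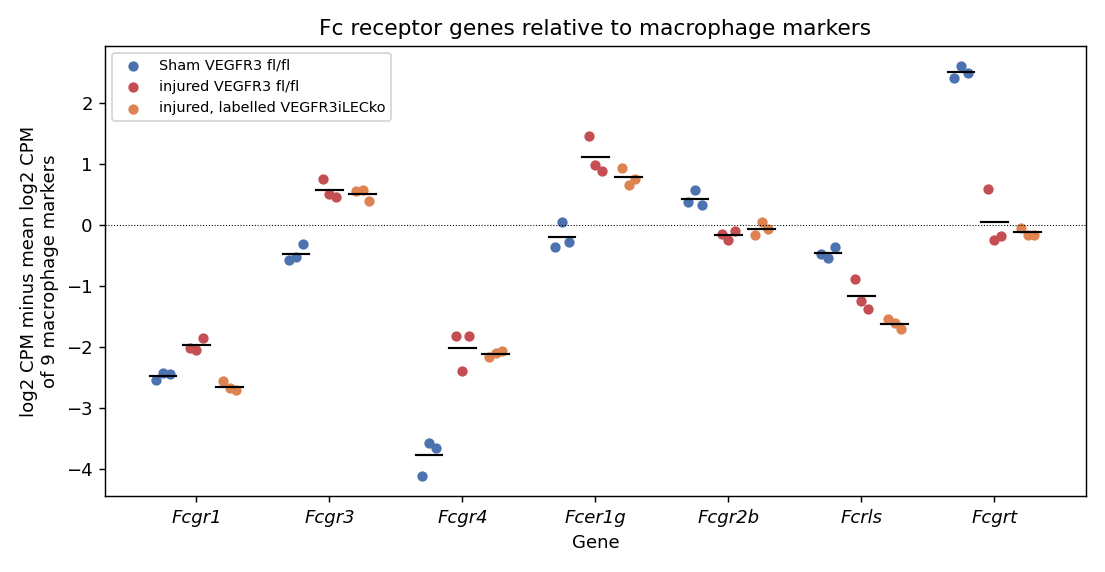
log2 CPM of 7 members minus the mean log2 CPM of 9 macrophage markers in the same library, with a point for each library and a line at the group mean (n = 3). On this scale Fcgr1 and Fcrls are lower in the libraries labelled VEGFR3iLECko than in injured controls. Fcgr3, Fcgr4, Fcer1g and Fcgr2b overlap between these groups. The markers include Cd14 and Itgam, which were higher in the group labelled VEGFR3iLECko.

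Beside Fcrl1 stand the B cell markers, of which 5 were tested and 4 rose after injury. Their summed level was 3.10 to 3.94 CPM in Sham, 60.2 to 88.1 CPM in injured controls and 35.9 to 55.0 CPM in the group labelled VEGFR3iLECko, and most of it was Cd22. The defining markers Ms4a1 and Pax5 had at most 6 and 9 counts in any library and were not tested. In the group labelled VEGFR3iLECko, 0 of the 5 were called by edgeR and 3 by DESeq2, all lower, and 3 were lower at an unadjusted p under 0.05 (median log2 fold change -0.72). There Cd79b had -1.39 (adjusted p = 0.0612) and Cd22 -0.72 (adjusted p = 0.0906). Beside Fcrls stand markers of resident and microglia-like macrophages, of which all 7 tested rose after injury (median 1.70), and 0 were called in the group labelled VEGFR3iLECko by edgeR and 2 by DESeq2, with 2 lower at an unadjusted p under 0.05. Of these, P2ry12 had a mean of 9.08 CPM over the libraries and Tmem119 of 54.9 CPM. Beside Fcer1a stand markers of mast cells and basophils. Ms4a2, the beta chain of the same IgE receptor, had 0 to 33 counts and was not tested, and of 7 tested markers 2 rose after injury (Hdc and Mcpt8). In the group labelled VEGFR3iLECko, 0 of the 7 were called by edgeR or DESeq2. At an unadjusted p under 0.05, 3 were lower and 1 was higher, and the median log2 fold change was -1.64. The mast cell proteases Cma1, Cpa3, Tpsb2 and Mcpt4 had -1.64 to -2.08 (edgeR adjusted p = 0.144 to 0.226). The CPM ranges of Cma1 and Tpsb2 overlapped those of injured controls. The other 3 tested markers had a higher mean. Hdc, the histidine decarboxylase, had 1.74 (adjusted p = 0.111), Mcpt8 had 0.99 (adjusted p = 0.519) and Kit had 0.33 (adjusted p = 0.409).

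As a description, the genes whose log2 CPM was most like that of a member over the 9 libraries were found by Pearson's r among 14221 other genes of at least 1 CPM. All of these points share the 3 groups, and 1374 genes had an r above 0.95 with Fcer1g and 1420 with Fcgr2b. The nearest to Fcer1g were Cd68 (r = 0.998), the macrophage lysosomal glycoprotein, then Evi2a, Myo1e, Lyz1 and Slc39a11. The nearest to Fcgr2b were Cd84 (r = 0.999), Tlr13, Wdfy4, Cd200r1 and Lcp1. Fcgrt had 31 genes above 0.95, led by Ggh (r = 0.979), Trf, Tnmd, Comp and Pcolce, of which Tnmd, Comp and Pcolce encode proteins of tendon, cartilage and collagen matrix. Injured control replicate 1 had 359 CPM of Fcgrt against 153 to 215 CPM in the other libraries, so that library weighs heavily in these correlations. Fcrl1 had 418, led by Slc38a7 (r = 0.993), Ptprcap, Cxcr3, the member Fcrls (r = 0.986) and Slc25a45.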

How the data were processed

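Poly(A) RNA of 9 pools of 3 irises was read as single-end 50-base reads. Per the labels' processing notes, the authors used HISAT2 2.0.4, Bowtie2 2.2.5, DESeq2 1.4.5 and the mm10 build; the program that estimated counts is not given in the sources used here. The authors deposited estimated counts per gene (expected counts, not normalized), of which 9.83% to 10.3% in a library were not whole numbers. A combined table with identical counts and group averages was not used.

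Counts were rounded in R 4.3.3, filtered by filterByExpr and fitted in edgeR 4.0.16 (TMM factors 0.90 to 1.09, group as the only term, all 9 libraries, quasi-likelihood test, Benjamini-Hochberg adjustment over 15010 genes); DESeq2 1.42.0 was an alternative. Scripts were tested on simulated data. Replicates differed by more than counting noise (chi-square per degree of freedom 5.13 to 76.2). Groups came from titles; the genotype tags of replicates 2 and 3 labelled VEGFR3iLECko name another VEGFR number and were not followed. Lengths and shared 50-base stretches came from GENCODE M21 (GRCm38), with a length for 97.6% of genes; promoters came from RefSeq, with 10 of 10 members matched. Positions match the mm10 build.

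The members, lists and tests were chosen with earlier results of these data known. Named are all members, the 2 to 4 genes of highest mean CPM in a list or those that a count of 5 or fewer turns on, and the 5 genes most like each of 4 members. P2ry12, Dock2, Vav1, Csf1r, Cma1, Cpa3, Tpsb2, Mcpt4 and Ms4a2 were added after their values were seen. Alternatives covered normalization, filter, fold threshold, test, libraries in the fit, a replicate block, a Y-linked covariate and leaving out each library. The result of a further marker is not reported here.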

Additional observations from a re-analysis of the deposited data

How the results depend on the processing

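The counts of 8 members upregulated after injury and of 7 upregulated in the group labelled VEGFR3iLECko against Sham stayed within 1.5 times of these values under every alternative run. The 3 members downregulated against injured controls became 0 in a fit of the 6 injured libraries, 1 with a replicate block and 1 with the Y-linked covariate, and 0 to 4 when each library was left out in turn: 0 without replicate 2 labelled VEGFR3iLECko, and 1 without Sham replicate 3 or without replicate 1 or 3 labelled VEGFR3iLECko. Over all genes, 70 were called lower, and 0, 13 and 2 in the fits with the 6 libraries, the block and the covariate, 281 with DESeq2 and 0 to 149 when each library was left out. The cause was not tested. The replicate numbers did not pair the samples (correlations of same-numbered deviations -0.35 to 0.18). With the replicate block, the adjusted p was 0.0618 for Fcrls and 0.0675 for Fcrl1. Fcer2a changed direction: its log2 fold change after injury ranged from -0.38 to 0.18 and against Sham in the group labelled VEGFR3iLECko from -0.50 to 0.047 when each library was left out, at 9 to 22 counts in Sham. Depth limits Fcer1a and Fcer2a, and Fcrl1 in Sham.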
